A study of Caenorhabditis elegans with 2 samples.

Results

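The Sox family of Caenorhabditis elegans comprised 5 genes in these data, sox-2, sox-3, sox-4, sem-2 and egl-13, out of 19973 protein-coding genes of the nuclear genome. They were chosen by name, with earlier results of these data known. Every region of the deposited lists was collected that touched a gene's window. The window ran from 5 kb upstream of the outermost annotated 5′ end to 1 kb past the 3′ end. These windows held 26 of the 30000 candidate regions called on both replicates together. Per the file notes these candidate lists hold peaks and background alike, and each has the same length of 30000. A candidate is therefore not a shown site, and counts, densities and coverage of candidates include background. By the authors' q-values, 20 of the 26 had a q above 0.05 (−log10 q of 0.08 to 1.17), and of the other 6, 4 were optimal. All the samples were whole hermaphrodite L1 larvae of strain OP517, genotype unc-119(tm4063) III; wgIs517, starved after bleaching and taken 6 hours after synchronization. The line stably expresses SOX-4 carrying GFP-FLAG at its C-terminus. Sonicated chromatin was recovered through the GFP part of the tag with an antibody. Both biological replicates, 2 in all, belong to 1 group, there is no other condition to compare, and no strain lacking the tag was analysed here. Reads from the transgene and from the chromosomal sox-4 gene cannot be told apart in these lists, and whole animals give no cell type for a region. The lists hold regions and no read counts, so depth is unknown and no test between samples could be made. All comparisons below are descriptions.

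Sox proteins are transcription factors that bind the minor groove of DNA through an HMG box and bend it, and the core sequence they read is close to ACAAT. In many animals they set the fates of progenitor cells, often together with a partner factor, and some are known to act on Sox genes themselves, their own included. In C. elegans, sox-2 and sox-3 belong to the SoxB group and act in neuronal differentiation, sem-2 is the SoxC gene that promotes sex myoblast fate, and egl-13 is the SoxD gene needed for uterine cells and for BAG sensory neurons.

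The sequences at the regions on which the results turn are shown first, because the values below refer to them. Each is on the gene's own strand, 5′ to 3′, from the RefSeq copy of assembly WBcel235 (ce11), and capitals mark ACAAT or its reverse complement ATTGT. The first 3 are from sox-4, the fourth from the only other Sox gene with an optimal region, and the fifth is the strongest candidate of sox-3, which stayed below the optimal list and may be background.
sox-4 intron, summit in the middle (chrX:3507266-3507516, minus strand): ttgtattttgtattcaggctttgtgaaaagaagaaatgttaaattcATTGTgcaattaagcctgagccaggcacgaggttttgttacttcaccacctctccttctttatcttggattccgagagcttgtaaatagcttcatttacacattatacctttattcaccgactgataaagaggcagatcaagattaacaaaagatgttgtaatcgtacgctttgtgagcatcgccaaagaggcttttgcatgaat
sox-4 promoter, summit in the middle (chrX:3509370-3509520, minus strand): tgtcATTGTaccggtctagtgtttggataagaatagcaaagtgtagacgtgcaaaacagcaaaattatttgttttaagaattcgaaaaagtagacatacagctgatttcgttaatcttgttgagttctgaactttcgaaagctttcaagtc
sox-4 internal start, the 150 bases before the 5′ end of transcript C12D12.5a.2 (chrX:3506426-3506575, minus strand): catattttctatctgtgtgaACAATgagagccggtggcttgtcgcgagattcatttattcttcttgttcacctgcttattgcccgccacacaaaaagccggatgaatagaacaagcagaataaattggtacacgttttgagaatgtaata
sox-2 intron, summit in the middle (chrX:7461692-7461842, minus strand): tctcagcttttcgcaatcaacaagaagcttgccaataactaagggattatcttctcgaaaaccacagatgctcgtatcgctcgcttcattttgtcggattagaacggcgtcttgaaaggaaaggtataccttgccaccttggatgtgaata
sox-3 promoter candidate, summit in the middle (chrX:14693447-14693597, minus strand): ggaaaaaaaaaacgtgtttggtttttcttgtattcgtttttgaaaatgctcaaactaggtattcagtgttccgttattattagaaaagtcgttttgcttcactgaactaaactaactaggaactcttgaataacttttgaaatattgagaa

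Of the 5 Sox genes, sox-4 and sox-2 had an optimal region in the window, against 14.1% of all coding genes with at least 1. The optimal list is the authors' list of reproducible peaks, and its 1497 members were the 1497 strongest regions of the pooled list, down to a signal of 51.3. Signal is the authors' own value for each region, and the pooled list as a whole had a median of 18.4. sox-4 held 3 optimal regions and sox-2 held 1, while sox-3, sem-2 and egl-13 held candidates below the optimal list. All 5 genes had at least 1 candidate, as did 78.2% of coding genes. At least 3 optimal regions lay in the windows of 0.265% of coding genes, sox-4 among them, and 12 genes had more than 3.

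**Figure D1:**
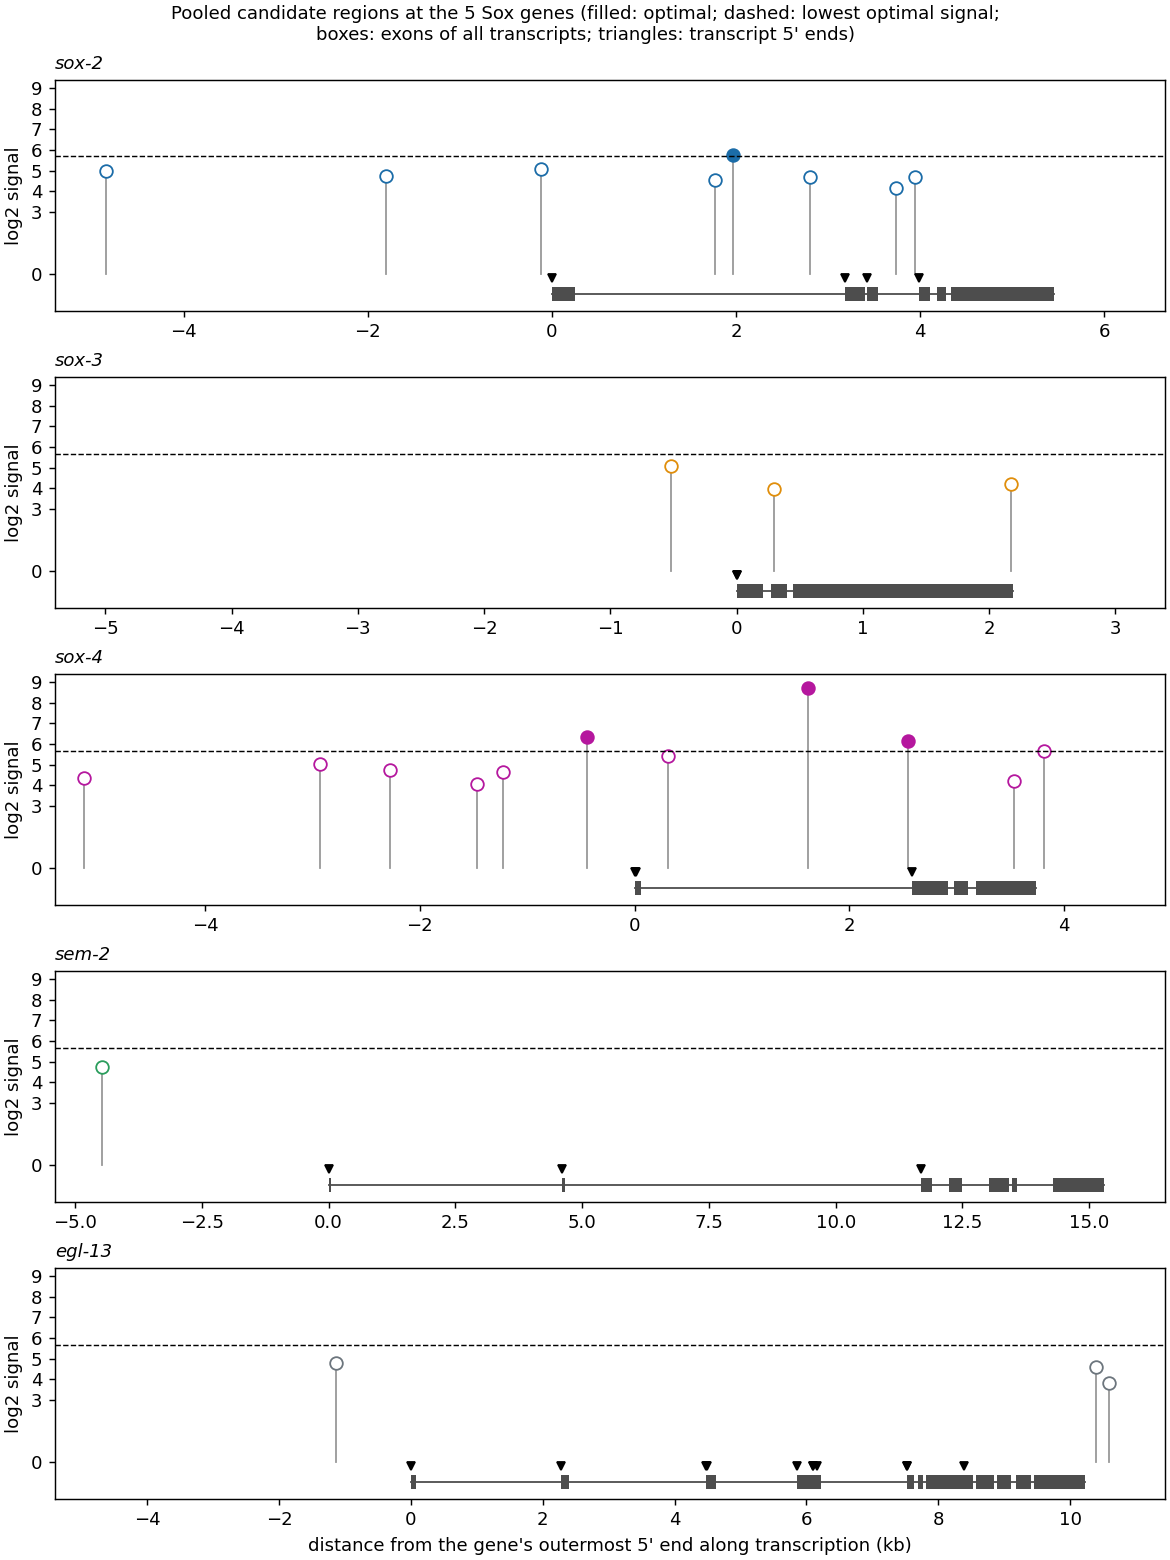
Signal (log2) of every pooled candidate region at the 5 Sox genes against the distance of its summit from the gene's outermost 5′ end, in kb along transcription. Filled points are optimal regions, the dashed line is the lowest optimal signal (51.3), boxes are exons of all transcripts and triangles are transcript 5′ ends; 3 filled points stand at sox-4 and 1 at sox-2.

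The strongest region of the family lay inside sox-4 itself, the gene whose tagged product was precipitated. The gene WBGene00015716 runs from 3505270 to 3509006 on the minus strand of X, 3.7 kb long, with 3 annotated transcripts. Its long first intron, 2522 bp from 3506420 to 3508941, held 3 candidate summits, 2 of them optimal. The strongest region ran from 3507175 to 3507596 with its summit 1615 bp inside the gene. Its signal was 421.5, rank 15 of the pooled list and 76.6% of the list's highest value. In replicate 1 the signal was 203.1 and in replicate 2 it was 236.6, and it ranked 17 in both. The list of replicate 2 holds 13 mitochondrial regions and the others none, and with these left out the region ranked 7 there. Each list has its own scale, so these values are best read against the next region of the gene in the same list. The intron region stood 5.25 times above that next region in the pooled list, 5.33 times in replicate 1 and 4.97 times in replicate 2. The summit position was the same to the base in the pooled list and replicate 2, and 28 bp away in replicate 1.

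A second optimal region of sox-4 lay at the start of an internal transcript. This region, from 3506265 to 3506660, peaked in the same intron for the long transcripts and 38 bp upstream of the 5′ end of the short transcript C12D12.5a.2. Its signal was 71.6 (rank 843) in the pooled list, 38.1 (rank 870) in replicate 1 and 39.2 (rank 790) in replicate 2. The replicates therefore placed it at nearly the same rank, inside the 1497 strongest regions of each. A window of 1000 bp upstream to 200 bp downstream of that transcript's 5′ end also takes in the strong intron summit, 966 bp away.

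The third optimal region was the promoter region of sox-4, from 3509247 to 3509642, with its summit 439 bp upstream of the outermost 5′ end. Of the 5 genes sox-4 alone had an optimal summit in the promoter window, from 1000 bp upstream to 200 bp downstream of the outermost 5′ end, against 5.67% of coding genes. Its signal was 80.3 (rank 674) in the pooled list, 27.6 (rank 1554) in replicate 1 and 47.6 (rank 546) in replicate 2. The replicates thus differed more here than at the other 2 regions, and in replicate 1 the region fell just outside the strongest 1497.

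The remaining 8 candidates of sox-4 had signals from 16.5 to 49.8. The region nearest the optimal list without entering it ran from 3504993 to 3505388. It peaked 79 bp past the 3′ end of sox-4 and inside C12D12.1, the convergent neighbouring gene. Its signal was 49.8 (rank 1577) in the pooled list, 30.5 (rank 1310) in replicate 1 and 22.9 (rank 2292) in replicate 2. A candidate of 42.3 (rank 2102), 315 bp inside the gene, overlapped a region of 35.8 (rank 963) in replicate 1 and one of 27.2 (rank 1602) in replicate 2. Further upstream, 5 candidates had summits between 1228 and 5127 bp from the 5′ end, and the strongest of them ranked 3353. Of these, the candidates at 1228 and 1471 bp overlapped a single region of replicate 2 with a signal of 30.6 (rank 1258), but in replicate 1 only a region of 9.5 (rank 22739). Replicate 2 had a further region of 33.6 (rank 1042) in the first intron, 953 bp inside the gene, that overlapped no region of replicate 1 or of the pooled list.

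**Figure D2:**
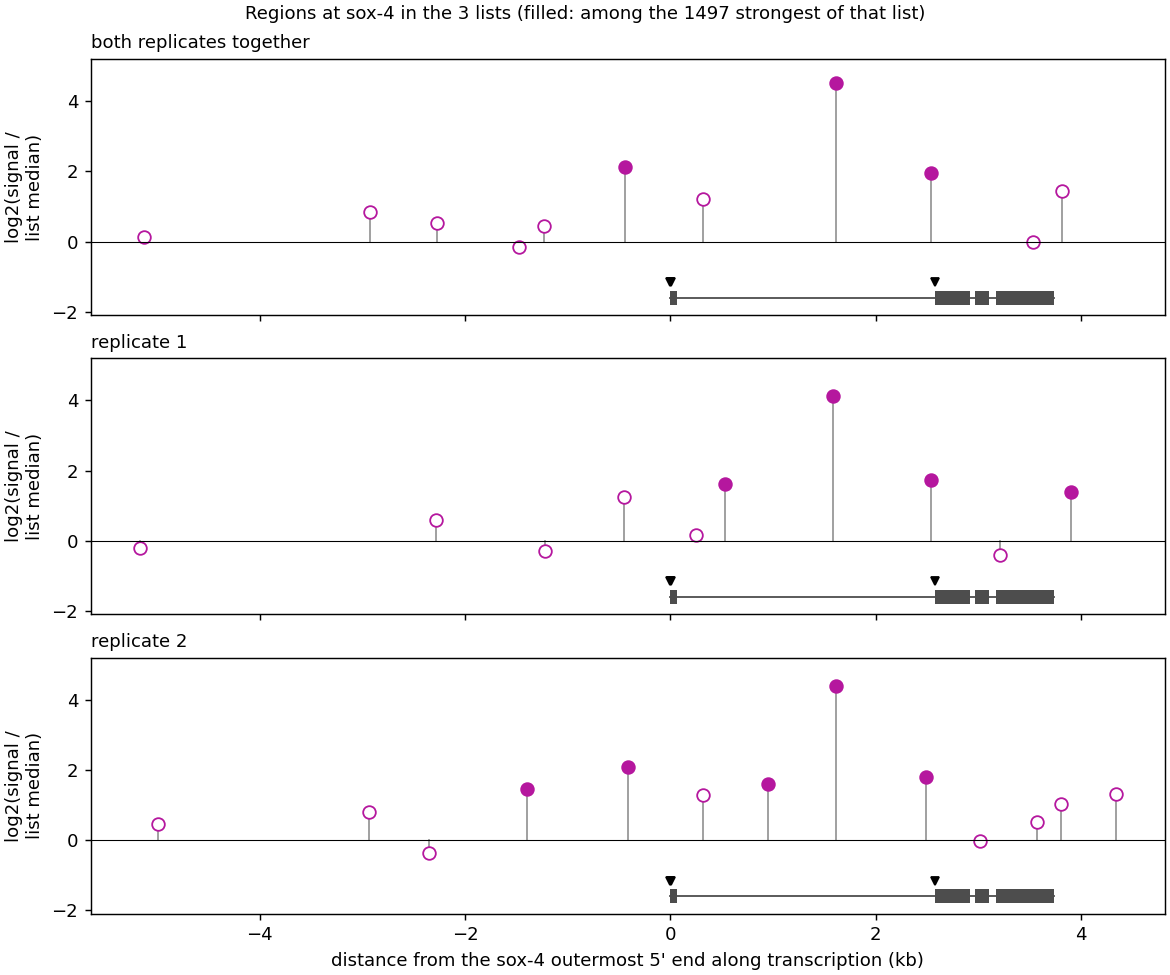
Regions at sox-4 in the pooled list and in each replicate, as log2 of signal over the median of that list, against distance from the outermost 5′ end in kb. Filled points are among the 1497 strongest of their list; the intron region 1615 bp inside the gene stands highest in all 3 lists, while the promoter point is filled in the pooled list and replicate 2 only.

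In each replicate's own list, sox-4 had several of the strongest regions, but mostly not the same ones. Its window held 10 regions in replicate 1, 4 of them among the 1497 strongest, and 13 in replicate 2, 5 of them among the strongest. Only the strong intron region and the internal-start region were among these in both replicates. In replicate 1 they included a region past the 3′ end, inside C12D12.1. At least 1 such region lay at 2 Sox genes in replicate 1 (sox-4 and sox-2), against 13.8% of coding genes, and at sox-4 alone in replicate 2, against 13.6%. At least 3 such regions lay at 0.31% of coding genes in replicate 1 and at 0.32% in replicate 2. Candidates covered 38.9% of the sox-4 window, more than in 99.5% of coding genes, with a median of 9.79% over all coding genes. Per kb of window sox-4 had 1.13 candidates in the pooled list, 1.03 in replicate 1 and 1.34 in replicate 2, against a median of 0.27 over coding genes in each list.

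In the pooled list candidates were also dense upstream of sox-4, and sparser past its 3′ end. In successive steps of 10 kb upstream of the 5′ end there were 9, 10, 9 and 3 pooled summits, and past the 3′ end 1, 3, 2 and 4. Replicate 1 had 7, 10, 10 and 3 upstream and 6, 7, 1 and 5 downstream. Replicate 2 had 8, 10, 9 and 1 upstream and 5, 3, 2 and 2 downstream. Both replicates thus showed the upstream steps up to 30 kb as dense and the next as sparse, while in the first step past the 3′ end both replicates had more than the pooled list. The contrast with the downstream side was thus smaller in each replicate than in the pooled list. By strength the replicates differed. In replicate 1 the strongest region in the first step past the 3′ end had a signal of 51.3. The strongest in its upstream steps were 27.6, 38.6, 22.1 and 11.2, all lower. In replicate 2 the strongest in the first step past the 3′ end was 27.7, below the 47.6 of the first upstream step. Over 1771 bins of 10 kb on X the median was 3 pooled summits, and 3.78% of bins held at least 9. Within 40 kb of sox-4 all 6 optimal regions lay in the gene or upstream of it, the outer 3 at 14.1, 15.0 and 19.1 kb, inside npr-16, a neuropeptide receptor gene. None of these 3 was among the 1497 strongest regions of both replicates. The one at 14.1 kb had a signal of 57.7 in the pooled list, overlapped no region of replicate 1 and had 28.2 (rank 1483) in replicate 2. The one at 15.0 kb had 54.3 in the pooled list, 20.4 (rank 3154) in replicate 1 and 22.8 (rank 2320) in replicate 2. The last had a signal of 53.0 in the pooled list, 38.6 (rank 857) in replicate 1 and 16.9 (rank 4936) in replicate 2. None of the other Sox genes had more than 5 pooled summits in any such step. In replicate 2, however, sox-2 had 7 and 6 in its first and second upstream steps. It also had 6 in the second step past its 3′ end, and sox-3 had 6 in the third. The contrast of sox-4 with these genes was thus smaller in replicate 2, where its first upstream step held 8. The strain carries extra sox-4 sequence as a transgene, and its part in these counts was not tested.

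**Figure D3:**
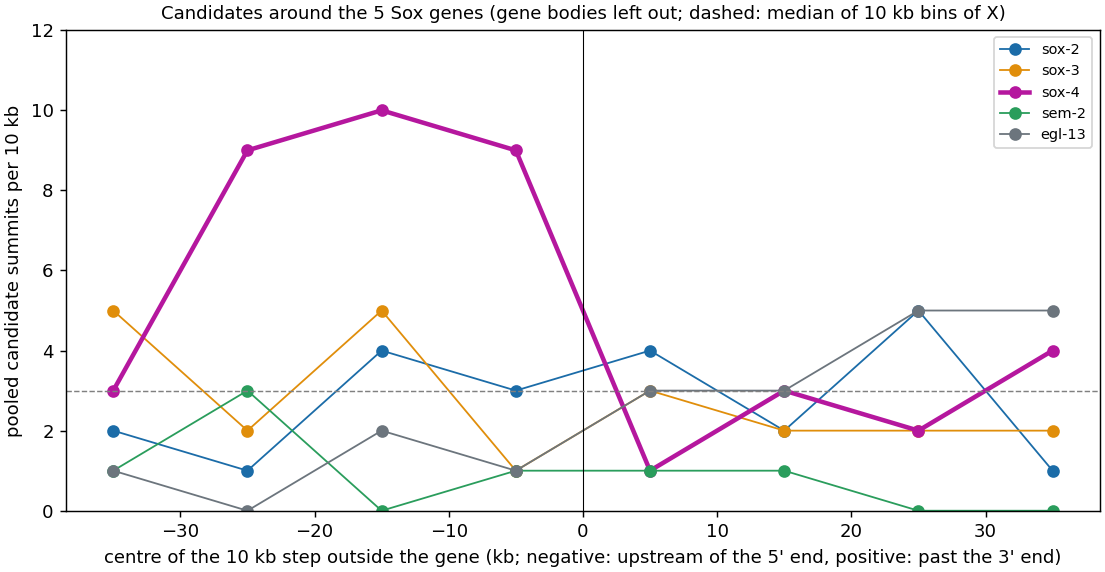
Pooled candidate summits in steps of 10 kb outside each Sox gene, with the gene bodies left out; negative distances are upstream and the dashed line is the median of 10 kb bins of X. The sox-4 line stands at 9 to 10 in the 3 steps nearest its 5′ end and at 4 or fewer in the other steps.

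Among the other Sox genes, sox-2 had the most regions and the single further optimal one. The gene WBGene00004949 runs from 7458280 to 7463736 on the minus strand of X and has 5 transcripts with 4 different 5′ ends. Its window held 8 candidates with signals from 18.0 to 53.3, that is 0.7 per kb, more than in 93.0% of coding genes. The optimal region, from 7461569 to 7461964, had its summit 1969 bp inside the gene, in the first intron of the long transcripts and 1219 bp upstream of the 5′ end of the shorter transcript K08A8.2a.1. Its signal was 53.3 (rank 1392), close to the lowest optimal signal. The overlapping region had a signal of 33.2 (rank 1108) in replicate 1 and 24.7 (rank 1955) in replicate 2. The overlapping region was therefore among the 1497 strongest in replicate 1 and outside them in replicate 2. Its summit was 144 bp from the pooled one in replicate 1 and 48 bp in replicate 2. Both replicate regions also overlapped the neighbouring candidate of 23.5 (rank 8029). The summit of replicate 1 lay closer to that weak candidate, at 56 bp. The summit of the optimal region lay within 1000 bp upstream of the annotated noncoding RNA genes K08A8.13 and K08A8.14. Noncoding RNA genes, among them also K08A8.5, K08A8.9, K08A8.17, K08A8.18, K08A8.23 and K08A8.26, accompanied 7 of the 8 regions of sox-2 in this way or by overlap. The share of all candidates with such a neighbour was not worked out, so this count cannot be called particular to sox-2.

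The promoter of sox-2 held a candidate below the optimal list. It ran from 7463659 to 7464054 with its summit 121 bp upstream of the outermost 5′ end, and had a signal of 34.2 (rank 3088) in the pooled list. The signal was 16.4 (rank 5739) in replicate 1 and 20.0 (rank 3134) in replicate 2, so neither replicate placed it near its strongest regions. Inside the gene, candidates of 25.9 and 25.5 had summits 385 bp upstream of K08A8.2a.1 and 36 bp upstream of K08A8.2b.3. Farther upstream, candidates of 26.2 and 32.0 lay inside coh-1, a cohesin subunit gene, and overlapped a region in replicate 2 only, where they ranked 5694 and 2104.

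At sox-3, a short gene of 2.2 kb on X (WBGene00004950, 14690816 to 14693005, minus strand), the window held 3 candidates. The strongest, from 14693324 to 14693719, peaked 517 bp ahead of the 5′ end and had a signal of 33.5 (rank 3234). It was 19.5 (rank 3551) in replicate 1 and 12.3 (rank 11913) in replicate 2, so replicate 1 ranked it much higher. The candidates in a coding exon (15.3) and in the 3′ UTR (18.7) lay below and near the median of the list, and the former overlapped no region of either replicate. The latter had its summit upstream of the noncoding RNA gene F40E10.10.

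At egl-13, a gene of 10.2 kb on X (WBGene00001182, 5663837 to 5674067, plus strand) with 13 transcripts, the pooled list had no candidate summit inside the gene. Each replicate had weak ones there, 2 in replicate 1, at 36 and 5579 bp from the 5′ end, and 3 in replicate 2, the farther ones at 1072 and 4979 bp, with signals from 8.5 to 10.2. The regions nearest the 5′ end in each replicate overlapped each other. Its strongest candidate, from 5662499 to 5662894, lay 1140 bp upstream with a signal of 27.8 (rank 5023). The signal was 16.4 (rank 5753) in replicate 1 and 13.7 (rank 9024) in replicate 2, low in both. Its summit lay upstream of the noncoding RNA genes T22B7.15 and T22B7.18. The other 2 candidates, of 24.3 and 14.0, lay 154 and 362 bp past the 3′ end. The only candidate of sem-2, a gene of 15.3 kb on chromosome I (WBGene00004771, 5204530 to 5219815, minus strand), was 4477 bp upstream with a signal of 26.4 (rank 5807). It had a signal of 17.5 (rank 4753) in replicate 1 and overlapped no region of replicate 2. Replicate 2 instead had a weak region of 10.2 (rank 18366) at the 5′ end of the internal transcript C32E12.5.3, its summit 5 bp inside.

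Set against all coding genes by the strongest candidate in the window, the family spread over the upper part of the range. The strongest signal exceeded that of 99.9% of coding genes at sox-4, 86.7% at sox-2, 75.7% at sox-3, 67.4% at egl-13 and 64.3% at sem-2. The median over the 5 genes was 33.5, and over all coding genes 21.5. In replicate 1 the corresponding shares were 99.8%, 89.0%, 74.6%, 64.0% and 68.7%, and in replicate 2 they were 99.9%, 83.1%, 45.8%, 56.4% and 29.3%. The order of sox-4 and then sox-2 held in both replicates, while the order of sox-3, egl-13 and sem-2 did not. Longer windows can collect more regions, and the median window was 11457 bp for the family and 8027 bp for all coding genes. Per kb, sem-2 and egl-13 had 0.05 and 0.18 candidates, below the median of 0.27. In the replicates egl-13 had 0.25 and 0.37, so replicate 2 put it above the median of 0.27 in that list, while sem-2 had 0.05 in each.

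**Figure D4:**
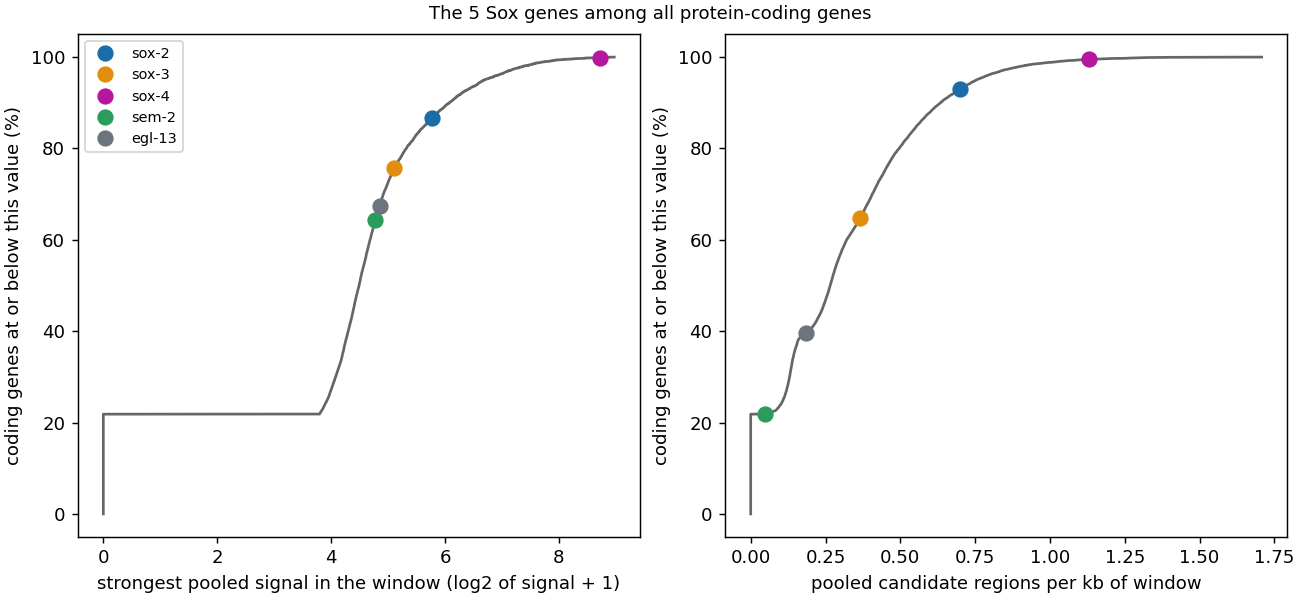
Cumulative share of 19973 coding genes by the strongest pooled signal in the window, as log2 of signal + 1 (left), and by pooled candidates per kb of window (right), with the 5 Sox genes as points. sox-4 lies at the top of both curves and sox-2 next, while egl-13 and sem-2 lie below the middle on the right.

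By position, 12 of the 26 candidates had summits upstream of their Sox gene, 8 in introns, 3 downstream, 2 in a 3′ UTR and 1 in a coding exon. Median signal was 27.2 upstream, 34.1 in introns and 24.3 downstream, and introns held both the highest value and values as low as 18.0. All intron summits were at sox-2 (5, signals 18.0 to 53.3) and sox-4 (3, signals 42.3 to 421.5). At sox-2 the upstream candidates, 26.2 to 34.2, fell within its intron range, so the intron median is no trait of the family. Shares by position over all candidates were not worked out. Of the 4 optimal regions, 3 were in introns and 1 was upstream. An optimal summit in an intron was found at 1.35% of coding genes, among them sox-4 and sox-2. Both an optimal intron summit and an optimal promoter summit were found at 32 coding genes, 0.16% of all, sox-4 among them. Among these 32, the genes most like sox-4 by the summed absolute log2 difference of both signals were Y111B2A.12 (intron 215.1 and promoter 71.7, distance 1.13), W06H8.6 (235.4 and 127.9, distance 1.51) and gei-4 (193.3 and 119.2, distance 1.69). The intron signal of each was far below the 421.5 of sox-4, which ranked 4 among all coding genes by that measure.

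Of the 26 candidates, 20 (76.9%) overlapped a region in both replicates, 1 in replicate 1 only, 4 in replicate 2 only and 1 in neither. Of all 30000 pooled regions 44.4% overlapped both, and of the optimal regions 99.7%. At sox-4 the count was 10 of 11, at sox-2 6 of 8, at egl-13 3 of 3, at sox-3 1 of 3 and at sem-2 0 of 1. Neighbouring candidates can overlap the same replicate region, so these counts are not of separate regions. Of the 20, 10 formed 5 pairs that shared their region in both replicates, 2 pairs at sox-2, 2 at sox-4 and 1 at egl-13. Counterparts in the lists made on the older build ce10 were found partly by their signal, so likeness of signal between builds is no separate result. The counterparts of the 4 optimal regions were in the ce10 optimal list, with pooled ranks of 15, 674 and 843 at sox-4 and 1392 at sox-2. The strongest candidates of sem-2, egl-13 and sox-3 ranked 5809, 5021 and 3369 there. Of the 25 regions of replicate 1 only 2 found a single counterpart, the strong sox-4 intron region (rank 17) and the internal-start region (rank 780).

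**Figure D5:**
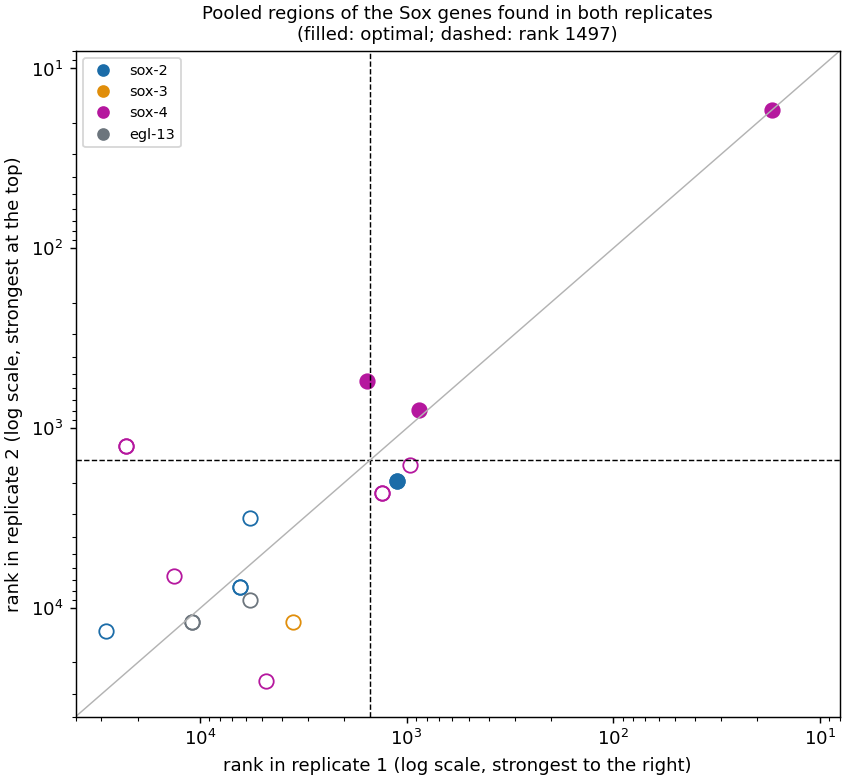
Rank in replicate 1 against rank in replicate 2 (log scales, strongest at the upper right) for the 20 pooled regions of the Sox genes found in both, some of which share a replicate region and coincide; sem-2 has none. Filled points are optimal and dashed lines mark rank 1497; the sox-4 intron region ranks 17 in both, and only it and the internal-start region of sox-4 are optimal and inside both lines.

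Within 50 bp of the summit the Sox core ACAAT, read on both strands, was present at 6 of the 26 candidates (23.1%) and at none of the 4 optimal ones. It was present at 28.7% of all candidates and at 23.2% of optimal regions in windows of the same length. The longer AACAAT, which contains ACAAT, the related ACAAAG and the repeat GAGAGA were each found at 0 of 26, against 12.7%, 5.0% and 6.69% of all candidates. These shares depend on the width searched. Within 100 bp ACAAAG was at 5 of 26 (19.2%), against 10.4% of all candidates, and over whole regions at 8 (30.8%), against 19.9%. AACAAT was at 5 (19.2%) within 100 bp and 10 (38.5%) over whole regions, against 24.3% and 42.5%. GAGAGA was at 1 (3.85%) and 5 (19.2%), against 12.6% and 21.4%. Within 100 bp ACAAT was at 18 of 26 (69.2%), 3 of the 4 optimal ones among them, against 49.4% of all candidates and 40.9% of optimal regions. Over whole regions it was at 23 of 26 (88.5%), against 73.8% of all candidates and 61.3% of optimal regions, with 4 matches in the strong sox-4 intron region and 2 in the optimal region of sox-2. In the sequences printed above, the single match of the sox-4 intron window and that of the sox-4 promoter window thus lie toward their edges. The internal-start window of sox-4, which is not centred on its summit, also holds a single match, toward its 5′ edge and away from the summit. The printed windows of sox-2 and sox-3 hold no match. Median GC content within 50 bp was 31.7% for the Sox gene regions, 31.7% for all candidates and 44.6% for optimal regions. A match is a string of letters and not a shown binding site.

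Among 10 further HMG-box genes, 3 had an optimal region in the window (30.0%, against the 14.1% of coding genes). They were hmg-1.1, an HMGB-like chromatin gene, with a strongest signal of 151.7, swsn-3, a SWI/SNF subunit gene, with 139.0, and hmg-6 with 55.1. The hmg-1.1 region had its summit past the 3′ end of the gene. The swsn-3 region had its summit 154 bp upstream and ranked 349 in replicate 1 and 206 in replicate 2, high in both. The hmg-1.1 region ranked 164 in replicate 1 and 207 in replicate 2. The hmg-6 region ranked 2573 in replicate 1 and 1732 in replicate 2, high in neither. The median strongest signal of this list was 24.9. The strongest candidate of pop-1, the TCF gene of the Wnt pathway, was 25.0, below the optimal list but above 60.9% of coding genes. Among 15 genes linked to Sox factors or to this strain, 6 had an optimal region (40.0%), with a median strongest signal of 25.9. The links are of different kinds, and a gene on this list need not be a target of a Sox factor. These were sys-1 (228.4) and wrm-1 (198.5), both beta-catenin genes, gcy-33 (102.0), a guanylate cyclase gene of BAG neurons, fos-1 (99.9), a Fos gene, unc-119 (70.7), the gene mutated in the strain, and ets-5 (64.0), an ETS factor of BAG neurons. The gcy-33 region had its summit 342 bp upstream of the gene, with a signal of 43.1 (rank 679) in replicate 1 and 60.0 (rank 368) in replicate 2. The sys-1 region also had its summit past the 3′ end of its gene. In replicate 1 and replicate 2 the sys-1 region ranked 97 and 64, that of wrm-1 95 and 108, and that of fos-1 437 and 568. The unc-119 region ranked 392 and 1889, and the ets-5 region 1551 and 828, so neither was high in both replicates. Whether the transgene adds to the unc-119 region was not tested. The SOX-2 partner genes ceh-6, sem-4 and egl-27 had strongest candidates of 22.3, 20.3 and 48.9, and none was optimal. Both lists are short and were chosen with earlier results of these data known. Their shares of 30.0% and 40.0% therefore cannot be read as an excess over the 14.1%, and their counts are descriptions only.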

How the data were processed

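Per the file notes, the authors called regions on each replicate and on both together, each with a control alignment, and derived an optimal list by the irreproducible discovery rate. Caller, version and threshold: not given in the sources used here. Deposited signal and −log10 q-value columns were used as the authors' values within a list. The latter served only to count candidates with a q above 0.05 and for 1 alternative ranking. Ranks order signal. Genes came from Ensembl release 115 (WBcel235, the ce11 sequence). A region was assigned by an overlap of at least 1 bp with the window, and the replicate value is that of the strongest overlapping region. Counterparts on ce10 were matched by chromosome, width, summit offset, signal within 2% and the signals of list neighbours, without converting coordinates. Replicate 1 has regions of 416 bp on ce11 and 410 bp on ce10 (medians), so in its list width was not used and signals could differ by 10%. Scripts were tested on simulated data. Members and lists were chosen with earlier results of these data known. Named genes were the 5 Sox genes, genes at their regions, members of both further lists with an optimal region, and the 3 genes nearest sox-4 in pattern. Other genes named, npr-16, pop-1, ceh-6, sem-4 and egl-27, were chosen after their values were seen. Python 3.11.15, numpy 2.4.6 and pandas 2.3.3 were used.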

Additional observations from a re-analysis of the deposited data

How the results depend on the processing

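The counts of optimal and candidate regions stayed within 1.5 times under other windows and summit assignment. The ce10 lists were used for the optimal counts only, and gave 2 Sox genes and 4 regions. With only the strongest 748 regions of the optimal list, 1 gene and 2 regions remained. Using each replicate's own 1497 strongest regions gave 1 to 2 genes, 5 regions and a promoter count of 0 to 1, and 25 to 33 candidates. The gene lost without replicate 1 was sox-2, and the promoter region lost without replicate 2 was that of sox-4. Strongest ranks in single replicates ranged from 17 to 17 for sox-4, 1108 to 1955 for sox-2, 3551 to 10870 for sox-3, 5753 to 7588 for egl-13 and 4753 to 18366 for sem-2. With the 13 mitochondrial regions of replicate 2 left out these ranks there were 7, 1942, 10857, 7575 and 18353. The ACAAT count rose from 6 to 18 within 100 bp and to 23 over whole regions, since the windows are longer. All 26 regions found a ce10 counterpart (23 of them a single one), which the match required to be within 2% in signal. In the replicate lists 2 of 25 regions of replicate 1 and 25 of 33 of replicate 2 had a single counterpart. Depth is unknown and limits every weak region.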
